A study of Homo sapiens with 40 samples.

Results

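The TAM system comprises the receptor tyrosine kinases TYRO3, AXL and MERTK and their secreted ligands GAS6 and PROS1 (protein S). These 5 genes were taken by symbol from the deposited count table, which lists 59251 gene symbols, and all 5 passed the low-count filter that left 19703 genes to test. GAS6 binds all the receptors, with the highest affinity for AXL, whereas PROS1 acts on TYRO3 and MERTK. Both ligands carry vitamin K dependent carboxylated residues that bind phosphatidylserine, so a ligand can bridge a receptor to an apoptotic cell or vesicle. In phagocytes MERTK serves the uptake of dying cells and restrains inflammation. In carcinoma cells AXL is best known for its links to motility, invasion and drug tolerance, and its extracellular part can be shed by ADAM10 and ADAM17.

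Total RNA was sequenced from 10 lines of H1299, an established human cell line from a non-small cell lung carcinoma, and each line gave 4 biological replicates. JAG1 KO clones 35 and 72, MYO10 KO clones 98 and 99, clone 84 with the genotype MYO10 KD, and clones 38 and 75 with the genotype MYO10 JAG1 WT had all been through CRISPR-Cas9 editing. The 3L2 leaders, the 3F2 followers and the H1299 parentals carry that same wild-type genotype and list no treatment. Leaders and followers are names for cells at the front of a collectively invading group and for those behind it, and the series title places the knockouts in leader cells. Every edited line is 1 clone, so a genotype rests on 2 clones at most. Leaders, followers and parentals are likewise 1 line each, so p-values between them measure the spread of cultures and not of such lines. The title of clone 84 says knockout where its genotype says knockdown, and it was kept apart as the KD clone. Wild-type clones below means clones 38 and 75, and these same 8 cultures serve as the control of the JAG1 KO, MYO10 KO and KD comparisons.

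Library totals ran from 40038816 to 44013445 counts. MYO10, which encodes a myosin motor of filopodia, averaged 63.4 and 52.0 CPM (counts scaled to a common library size) in KO clones 98 and 99 and 150 CPM in KD clone 84, against 490 and 440 CPM in wild-type clones 38 and 75. JAG1, which encodes a Notch ligand, averaged 32.4 CPM in KO clone 35 and 6.49 CPM in KO clone 72, against 44.2 and 40.5 CPM in wild-type clones 38 and 75. Unedited leaders and parentals had 139 and 295 CPM of JAG1, above the wild-type clones, and followers had 0.112 CPM of MYO10, below the KO clones. Where the guides cut was not analysed here, so these transcripts check the labels only in part. Of 4 epithelial markers, KRT8 and KRT18 were expressed in every line and EPCAM and KRT19 averaged at most 0.110 and 0.249 CPM in any line. Of 6 leukocyte and macrophage markers, CD68 alone was abundant (51.7 to 107 CPM by line), whereas PTPRC, which marks all leukocytes, averaged at most 0.0115 CPM in any line. The 3 endothelial markers summed to 0.753 CPM at most. In bulk cultures, fewer cells with a transcript and less of it per cell cannot be told apart.

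AXL (ENSG00000167601.11) lies on the plus strand of chr19:41219203-41261766 (GRCh38, GENCODE 29). It was the most variable of the 5 genes, with a ratio of 17.3 between the highest and the lowest line mean, against 3.35 to 4.32 for the other members. Leaders had 277, 265, 275 and 308 CPM in their 4 cultures, followers had 2136, 2313, 2063 and 2228 CPM, and parentals had 362, 494, 259 and 432 CPM. Followers stood alone, since no culture of any other line exceeded 494 CPM.

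The sequence before each AXL start is shown because the level of this gene varied most over the lines. RefSeq (GRCh38.p14) lists 2 starts for AXL, and the windows shown run over the bases before a start that lie outside exons. They were searched on both strands for the TEAD motif (GGAATG), through which YAP1 and WWTR1 act, the AP-1 motif (TGANTCA) and the SP1 motif (GGGCGG), without overlaps between motifs. Capitals mark the matches.

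AXL start 1, chr19:41218973-41219202, plus strand: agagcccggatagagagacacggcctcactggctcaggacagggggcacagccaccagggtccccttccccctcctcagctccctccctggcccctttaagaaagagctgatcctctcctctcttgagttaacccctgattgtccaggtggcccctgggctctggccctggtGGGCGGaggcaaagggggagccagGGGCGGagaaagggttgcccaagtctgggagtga

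AXL start 2, chr19:41226505-41226754, plus strand: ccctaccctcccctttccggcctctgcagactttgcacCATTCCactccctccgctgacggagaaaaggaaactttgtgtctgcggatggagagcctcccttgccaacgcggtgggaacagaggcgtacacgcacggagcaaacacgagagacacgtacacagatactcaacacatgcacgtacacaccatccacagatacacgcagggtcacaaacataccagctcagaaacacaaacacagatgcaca

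The first window held 2 SP1 motifs, and 39.96% of all windows of the same place and length hold at least 1. The second, inside the gene, held 1 TEAD motif, as do 11.9% of such windows, 212 bases before the start. A match is a description of letters and not a binding site.

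**Figure D1:**
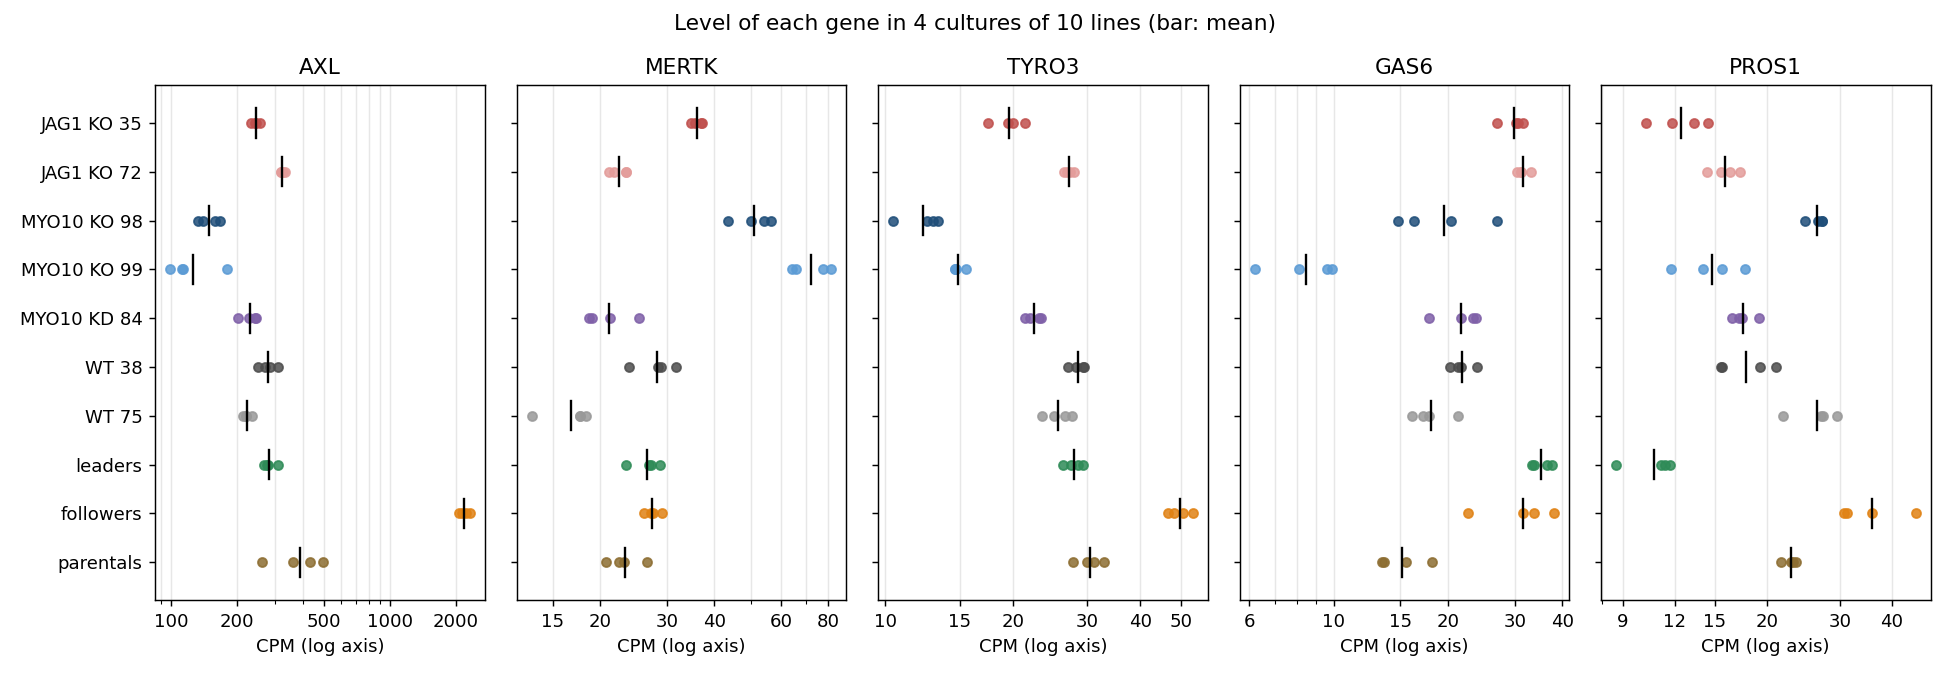
TMM-scaled CPM (log axis) of each TAM receptor and ligand in every culture (points) of the 10 lines, with the line mean as a bar. Followers stand alone in AXL at 2063 to 2313 CPM, MYO10 KO clones are lowest in AXL and TYRO3 and highest in MERTK, and PROS1 is highest in followers.

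Below followers, the mean level of AXL descended through parentals (387 ± 101 CPM, mean ± SD, n = 4 cultures as for every line), JAG1 KO clone 72 (322 ± 5.93), leaders (281 ± 18.3) and wild-type clone 38 (278 ± 25.6). It went on through JAG1 KO clone 35 (243 ± 8.90), KD clone 84 (229 ± 19.1) and wild-type clone 75 (222 ± 9.18) to MYO10 KO clone 98 (150 ± 16.4) and MYO10 KO clone 99 (126 ± 36.3). Neighbours in that order differed at an adjusted p under 0.05 in only 2 places. These were followers over parentals (edgeR quasi-likelihood adjusted p = 6.1e-16) and wild-type clone 75 over MYO10 KO clone 98 (adjusted p = 0.000785). Over all 45 pairs of lines, 55.3% of gene tests had an adjusted p under 0.05, so a difference between lines was common. A gene was called when its Benjamini-Hochberg adjusted p, over all genes tested, was under 0.05 and its absolute log2 fold change at least 1.

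Between leaders and followers, AXL and PROS1 passed the test. In leaders AXL fell by 2.96 ± 0.15 on the log2 scale (SE; edgeR adjusted p = 6.6e-18). PROS1 fell too, by 1.74 ± 0.12 (adjusted p = 1.9e-15), at 11.4, 11.7, 8.66 and 11.1 CPM in leaders and 31.3, 30.7, 35.9 and 45.6 CPM in followers. TYRO3 was lower in all leader cultures, at 26.3 to 29.4 CPM, against 46.5 to 53.2 CPM in followers. Its log2 difference of -0.83 ± 0.06 (adjusted p = 4.7e-15) did not reach the fold required for a call. MERTK differed little, at 26.5 ± 2.25 CPM in leaders and 27.5 ± 1.20 CPM in followers (log2 -0.05 ± 0.10, adjusted p = 0.67). GAS6 likewise overlapped, at 35.3 ± 2.10 CPM in leaders and 31.5 ± 6.54 CPM in followers (log2 0.17 ± 0.14, adjusted p = 0.32). Of the 5 members 2 fell and 0 rose, where 12.7% of all genes tested fell and 12.7% rose.

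Set against parentals, the rise of AXL in followers was larger than the shift in leaders. AXL rose in followers by 2.5 ± 0.14 (adjusted p = 6.1e-16), and 2 of 5 members rose and 0 fell there, against 9.32% of all genes that rose and 10.9% that fell. In leaders AXL stood at 281 CPM, against 387 CPM in parentals, a log2 difference of -0.46 ± 0.14 (adjusted p = 0.0083) with overlapping cultures. Among the 5 members, 1 rose in leaders (GAS6) and 1 fell (PROS1), where 3.22% of all genes rose and 6.54% fell. These comparisons share the parental libraries.

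**Figure D2:**
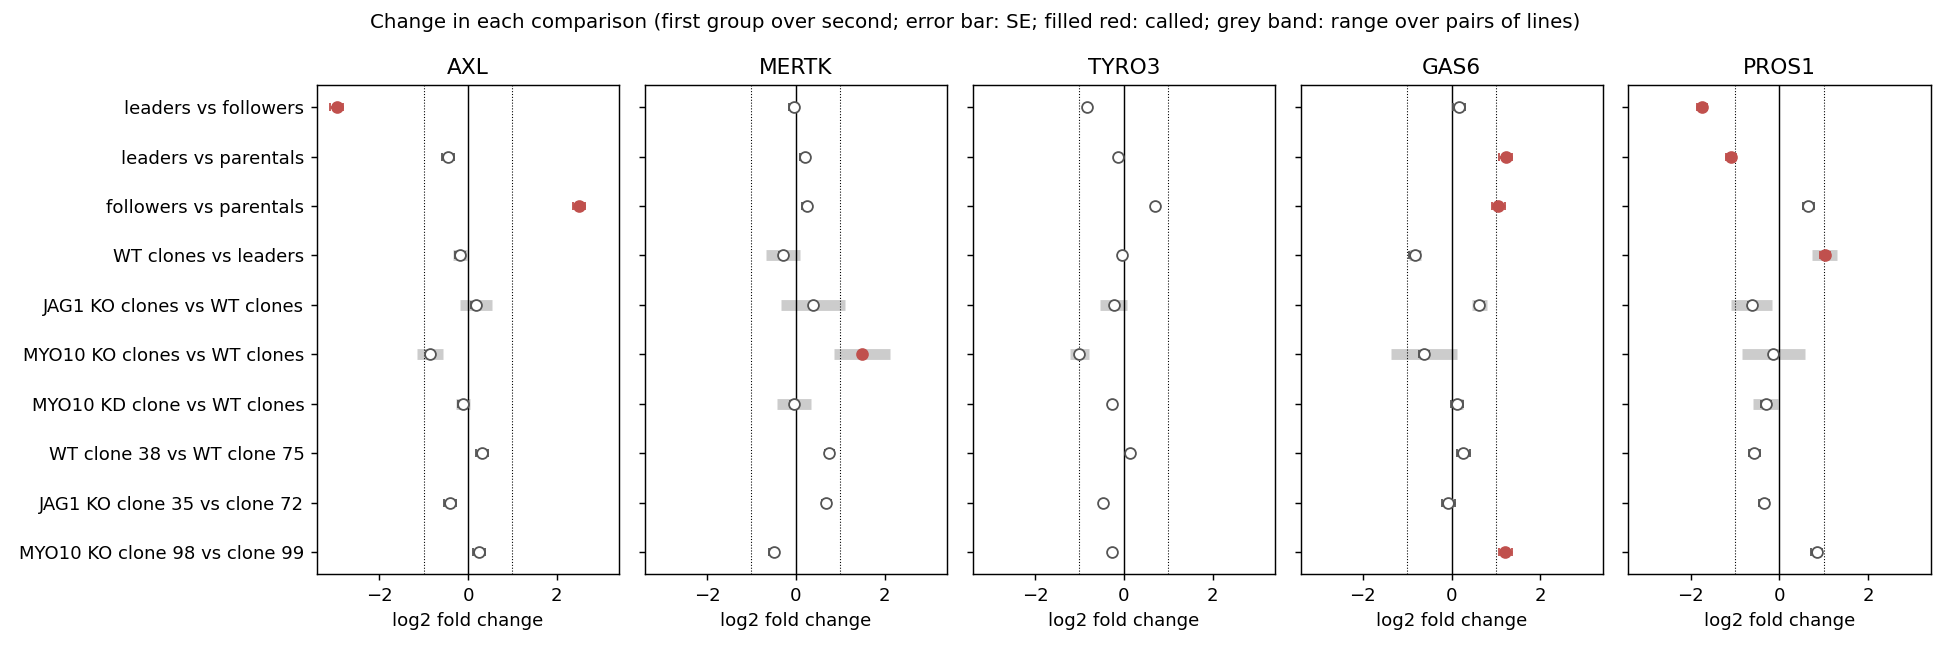
Log2 fold change of each member (points, with SE) in the 10 comparisons, first-named group over second-named group. Filled red points are called, dotted lines mark a log2 of 1 in either direction, and grey bands span the pairs of lines in comparisons of several clones, so AXL lies farthest out in leaders against followers (-2.96) and in followers against parentals (2.5), and MERTK is the one member called in MYO10 KO against wild-type clones (1.48).

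AXL lies within a stretch of chromosome 19 that differed as a whole between leaders and followers. Of 48 other tested genes with midpoints within 1 Mb of that of AXL, 42 fell in leaders and 0 rose, with a median log2 of -1.70, where the median of all genes tested was 0.01. AXL at -2.96 lay further out than all but LTBP4 (log2 -3.03) and SPTBN4 (log2 -3.44). HNRNPUL1, a neighbouring gene for an RNA-binding protein, fell by 1.96 ± 0.05 (adjusted p = 1.2e-30), at 439 CPM in leaders and 1705 CPM in followers. The shift reached far beyond AXL. In each 1 Mb bin from 6 Mb before it to 5 Mb after it, the median lay between -2.26 and -1.59, and in the bin from 5 to 6 Mb after it the median was -0.02 (22 genes). Within the bin from 4 to 5 Mb after it, 19 of 29 genes lay at or below -1. Of the 12 bins, 3 held fewer than 20 genes.

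**Figure D3:**
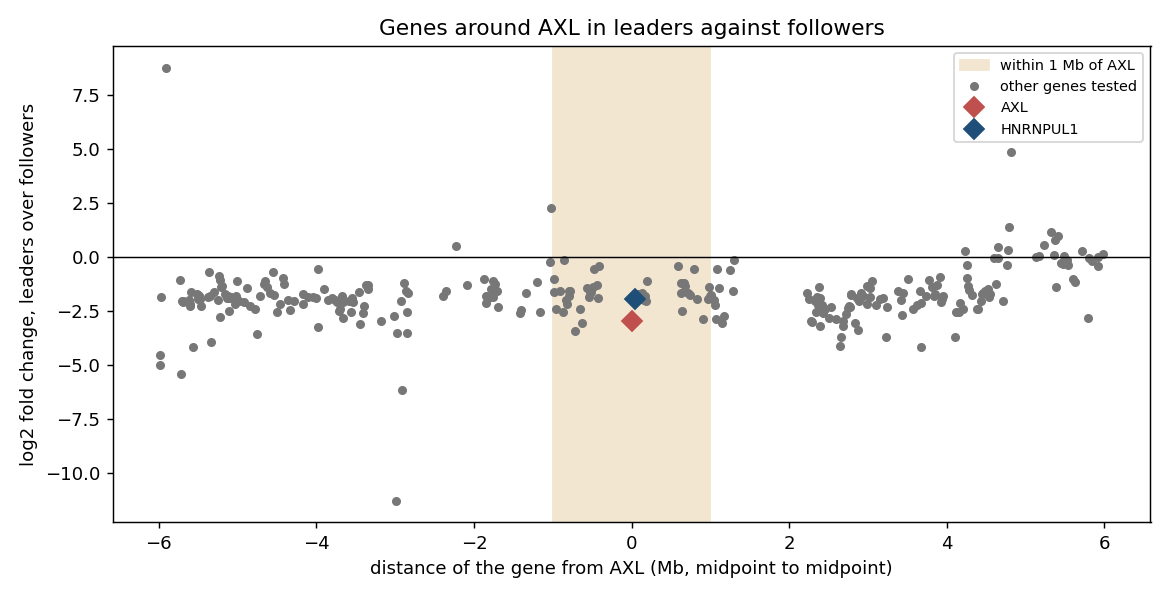
Log2 fold change of leaders over followers for each tested gene by its distance from AXL in Mb, with AXL and HNRNPUL1 marked and the 1 Mb window shaded. Nearly all genes lie below 0 up to about 4.6 Mb after AXL, and AXL (-2.96) lies below the median of its window (-1.70).

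The stretch was also raised in followers against parentals, where 27 of the 48 genes rose and 0 fell, with a median log2 of 1.05. AXL, at 2.5, rose more than each of those 48 genes. Set against the median of the 10 lines, followers were 3.07 log2 units higher in AXL and 1.17 higher at the median of its window, a difference of 1.90. In leaders against parentals the window had a median log2 of -0.65, and AXL at -0.46 was nearer to 0. The number of DNA copies was not measured, and its part in these levels was not tested.

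Relative to their mean, the 4 parental cultures spread more in AXL than leaders or followers did, and the neighbourhood was ordered alike. AXL was highest in parental culture 2 (494 CPM), then in cultures 4 (432 CPM), 1 (362 CPM) and 3 (259 CPM). HNRNPUL1 kept that order, at 794, 703, 654 and 594 CPM. So did the median of the window, which lay 0.79, 0.66, 0.57 and 0.43 log2 units above the leader mean. MYO10 ran the opposite way over the same cultures, at 237, 275, 310 and 426 CPM. With 4 cultures of 1 line, no test of these orders was made.

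**Figure D4:**
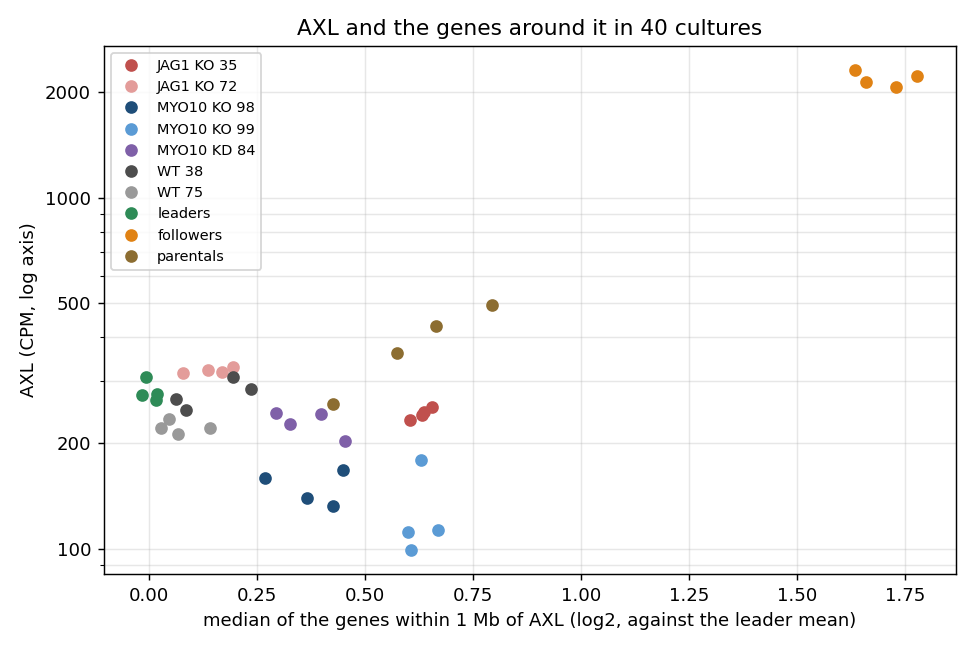
AXL (CPM, log axis) against the median of the 48 genes within 1 Mb of it (log2, set against the leader mean) in all 40 cultures. Followers lie far to the upper right, the 4 parental cultures are ordered alike on both axes, and MYO10 KO clones 98 and 99 lie lowest in AXL although their windows lie above those of leaders.

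In the MYO10 KO clones AXL was lower than in wild-type clones in every culture. It had 159, 140, 132 and 168 CPM in clone 98 and 113, 99.0, 112 and 180 CPM in clone 99, against 249 to 309 CPM in wild-type clone 38 and 212 to 234 CPM in wild-type clone 75. The log2 difference was -0.85 ± 0.10 (adjusted p = 0.0018), from -1.14 to -0.57 over the pairs of clones, which is short of a call. The genes around AXL did not share it, since their median log2 was 0.43 and 1 of 48 lay lower than AXL. In KD clone 84 AXL overlapped the wild-type clones, at 229 ± 19.1 CPM (log2 -0.12 ± 0.12, adjusted p = 1). Set directly against KD clone 84, KO clones 98 and 99 were lower by log2 -0.61 ± 0.14 (adjusted p = 0.000349) and -0.86 ± 0.14 (adjusted p = 3.7e-06).

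In AXL, JAG1 KO clone 72 averaged above both wild-type clones and JAG1 KO clone 35 between them. Clone 72 had 317 to 330 CPM and clone 35 had 233 to 254 CPM, a log2 difference of clone 35 over clone 72 of -0.41 ± 0.14 (adjusted p = 0.011). The log2 difference of the JAG1 KO clones from the wild-type clones was 0.17 ± 0.10 (adjusted p = 1). Wild-type clones and leaders overlapped in AXL (log2 -0.18 ± 0.12, adjusted p = 1).

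Transcripts of the TEAD and AP-1 factors and of their coactivators were also examined. Of 13 YAP, TAZ, TEAD and AP-1 genes, 1 rose (FOS, log2 1.61 ± 0.68, adjusted p = 0.037) and 0 fell in leaders against followers, with a median of -0.15, where 12.7% of all genes rose and 12.7% fell. The coactivator YAP1 had 143 ± 2.65 CPM in leaders and 225 ± 6.31 CPM in followers (log2 -0.65 ± 0.05, adjusted p = 3.7e-16). Its paralogue WWTR1 (TAZ) went the other way, at 232 ± 10.4 CPM in leaders and 121 ± 2.35 CPM in followers (log2 0.94 ± 0.11, adjusted p = 9.4e-09). TEAD1, TEAD2 and TEAD3 had adjusted p values of 0.54, 0.063 and 0.077, and TEAD4 had a log2 of -0.31 ± 0.08 (adjusted p = 0.000764). The AP-1 subunit FOSL1 stood at 500 ± 19.3 CPM in leaders and 833 ± 60.1 CPM in followers (log2 -0.74 ± 0.11, adjusted p = 1.0e-06).

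MERTK (ENSG00000153208.16, plus strand of chr2:111898479-112029561) was highest in the MYO10 KO clones. It had 43.6, 54.0, 50.1 and 56.4 CPM in clone 98 and 66.0, 77.3, 81.5 and 64.1 CPM in clone 99. Wild-type clone 38 had 29, 28.4, 31.7 and 23.9 CPM, and wild-type clone 75 had 17.7, 18.4, 17.7 and 13.2 CPM. No KO culture overlapped a wild-type culture. MERTK rose in the MYO10 KO clones by 1.48 ± 0.07 (edgeR adjusted p = 2.4e-09), from 0.85 to 2.11 over the pairs of clones. It was the only member called there, 1 of 5 rising and 0 falling, where 4.91% of all genes rose and 3.15% fell.

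Because MERTK rose in the MYO10 KO clones, the RefSeq bases before its start that lie outside exons are shown, with SP1 motifs on the opposite strand in capitals.

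MERTK, chr2:111898357-111898478, plus strand: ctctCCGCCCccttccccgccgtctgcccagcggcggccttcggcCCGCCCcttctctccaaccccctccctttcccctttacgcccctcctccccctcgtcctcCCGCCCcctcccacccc

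This window held 3 SP1 motifs and no TEAD or AP-1 motif, and 21.0% of all windows of the same place and length hold an SP1 motif.

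Several measurements bear on how far that result carries. With the clone as the unit, on counts summed per clone, the log2 was 1.46 and the call was lost (edgeR adjusted p = 0.39), in a test that called 0 of 19703 genes and found 2376 at an unadjusted p under 0.05. Wild-type clones 38 and 75 themselves differed by log2 0.76 ± 0.10 (adjusted p = 1.2e-07) in MERTK, with a median of 0.51 over the 25 tested genes within 1 Mb of it. In MYO10 KO against wild-type clones that window had a median log2 of 0.06, and 24 of its 25 genes lay below MERTK. The epithelial keratins KRT8 (log2 4.32 ± 0.10) and KRT18 (log2 1.73 ± 0.11) rose in the same comparison, and the epithelial list summed to 981 to 1178 CPM in KO clone 98 and 518 to 1018 CPM in KO clone 99, against 130 to 167 CPM in wild-type clone 38 and 164 to 237 CPM in wild-type clone 75. High sums were not confined to the MYO10 KO clones. JAG1 KO clone 35 had 1209 to 1502 CPM, above both of them, and JAG1 KO clone 72 had 51.6 to 57.5 CPM. EPCAM was near 0 in all of these lines, and the part of the keratin shift in the MERTK result was not tested.

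In KD clone 84 MERTK stood at 21.0 ± 3.00 CPM, between the wild-type clones (log2 -0.05 ± 0.09, adjusted p = 1). KO clones 98 and 99 lay above KD clone 84 by log2 1.28 ± 0.10 (adjusted p = 2.5e-14) and 1.78 ± 0.10 (adjusted p = 2.1e-18), and above the unedited leaders by log2 0.94 ± 0.10 (adjusted p = 5.4e-11) and 1.44 ± 0.10 (adjusted p = 4.0e-16). JAG1 KO clone 35 came next in the order of lines, at 36.1 ± 1.14 CPM, and JAG1 KO clone 72 had 22.4 ± 1.16 CPM (log2 of clone 35 over clone 72, 0.69 ± 0.10, adjusted p = 9.8e-08). Clone 35 lay above both wild-type clones and clone 72 between them, from log2 -0.34 to 1.11 over pairs (adjusted p = 1). Neighbours in the order from wild-type clone 38 (28.2 ± 3.25 CPM) through followers, leaders, parentals (23.2 ± 2.43) and JAG1 KO clone 72 to KD clone 84 did not differ beyond their spread, and wild-type clone 75 was lowest at 16.7 ± 2.39 CPM.

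TYRO3 (ENSG00000092445.11, plus strand of chr15:41557675-41583586) was highest in followers (49.5 ± 2.90 CPM) and lowest in the MYO10 KO clones. Clone 98 had 10.4, 12.5, 12.9 and 13.4 CPM and clone 99 had 14.6, 14.7, 15.6 and 14.6 CPM, against 27.1 to 29.4 CPM in wild-type clone 38 and 23.4 to 27.6 CPM in wild-type clone 75. All KO cultures lay below all wild-type cultures. The log2 difference of -0.999 ± 0.05 (adjusted p = 4.3e-13; -1.21 to -0.79 over pairs) fell short of a call by its size alone. It was called with no low-count filter (-1.01), with a minimum count of 50 (-1.003), or without culture 3 of wild-type clone 38, culture 2 of wild-type clone 75, culture 2, 3 or 4 of clone 98 or culture 3 of clone 99 (-1.004 to -1.02). With the clone as the unit its adjusted p was 0.39, as for AXL.

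KO clones 98 and 99 were also lower in TYRO3 than KD clone 84, by log2 -0.87 ± 0.07 (adjusted p = 1.0e-14) and -0.59 ± 0.07 (adjusted p = 4.2e-10). KD clone 84 itself had 22.4 ± 0.913 CPM and lay just below the wild-type clones (log2 -0.27 ± 0.06, adjusted p = 0.022). The window of TYRO3 had a median log2 of 0.01 over 41 genes in MYO10 KO against wild-type clones, and 2 of them lay below TYRO3. JAG1 KO clone 35 had 19.6 ± 1.63 CPM and clone 72 had 27.2 ± 0.674 CPM (log2 -0.47 ± 0.07, adjusted p = 5.0e-08), and the JAG1 KO clones were not called against the wild-type clones (log2 -0.23 ± 0.05, adjusted p = 1). Parentals (30.4 ± 2.11 CPM), wild-type clone 38, leaders (27.9 ± 1.34 CPM), JAG1 KO clone 72 and wild-type clone 75 formed a run whose neighbours did not differ.

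AXL and TYRO3 lay in much the same order over the lines. Over the 10 line means of log2 CPM, Pearson's r was 0.88 and Spearman's rank correlation was 0.89, and r was 0.89 without followers and MYO10 KO clone 99, the lines farthest out in AXL. The other 9 pairs of members had an r between -0.66 and 0.51. That of MERTK and TYRO3 was -0.66, and it was -0.01 without MYO10 KO clones 98 and 99. That of the ligands GAS6 and PROS1 was -0.13. These values describe 10 lines that share descent, and no p is attached.

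Because CPM counts all reads of a gene, receptors were compared with one another only after division by length (exon union of GENCODE 29). AXL then made up 97.6 ± 0.147% of receptor CPM per kb in followers and 83.3% to 90.4% in leaders, parentals, the wild-type, JAG1 KO and KD clones. It made up 70.7 ± 3.19% in MYO10 KO clone 98 and 58.6 ± 8.13% in MYO10 KO clone 99. MERTK supplied 26.5 ± 2.86% in clone 98 and 38.1 ± 7.71% in clone 99, against 9.69 ± 1.57% in wild-type clone 38 and 7.29 ± 1.20% in wild-type clone 75. The ratio of AXL to MERTK per kb was 2.7 ± 0.442 in clone 98 and 1.64 ± 0.637 in clone 99, against 9.11 ± 1.88 in wild-type clone 38 and 12.4 ± 2.59 in wild-type clone 75, while followers had 72.6 ± 5.29. The wide SD of clone 99 came from culture 4, whose AXL share was 70.0% (180 CPM of AXL), against a lowest share of 51.9%.

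**Figure D5:**
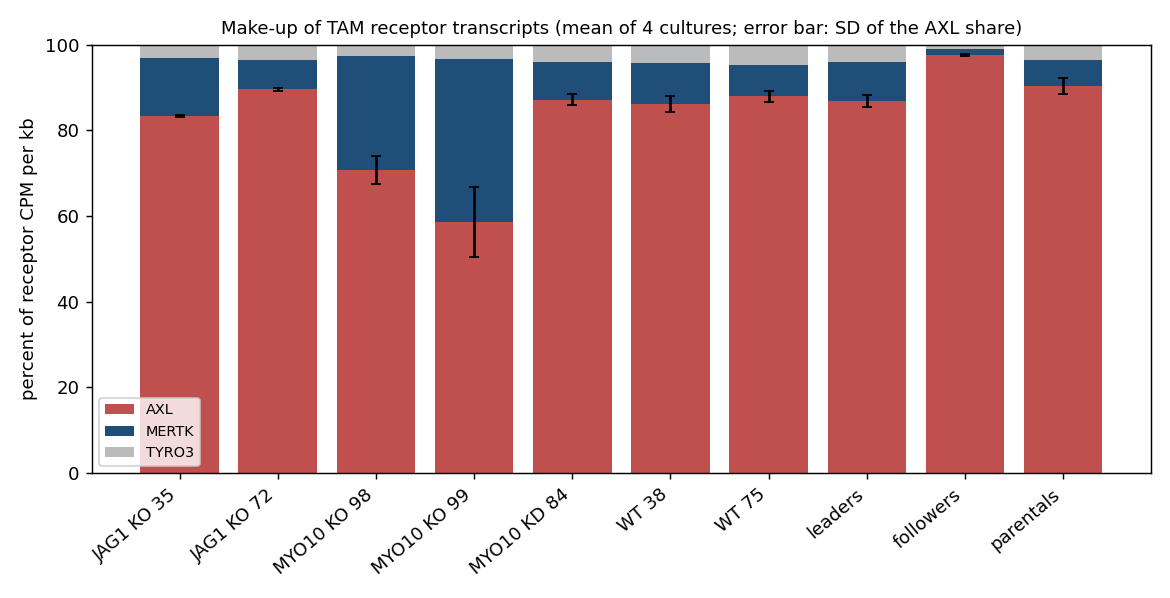
Share of each TAM receptor in the summed receptor CPM per kb in the 10 lines (mean of 4 cultures; error bar, SD of the AXL share). AXL takes 97.6% in followers, and MERTK takes its largest shares in MYO10 KO clones 98 and 99.

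GAS6 (ENSG00000183087.14, minus strand of chr13:113820549-113864067) was high in leaders and followers alike. Leaders had 37.7, 33.7, 33.4 and 36.4 CPM, followers 33.8, 38.1, 22.6 and 31.5 CPM, and parentals 15.5, 13.4, 18.2 and 13.6 CPM. All cultures of leaders and of followers lay above all of parentals. GAS6 rose in leaders by 1.22 ± 0.15 (edgeR adjusted p = 3.9e-08) and in followers by 1.05 ± 0.15 (adjusted p = 2.2e-07). The call in followers was lost on library totals alone (0.97), in a fit of the compared lines alone (0.99), without parental culture 2 (0.97) and without follower culture 2 (0.92). Around GAS6, the median log2 of 22 genes was 0.01 in leaders and -0.14 in followers against parentals.

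The wild-type clones departed from leaders in GAS6. Wild-type clones 38 and 75 had 21.8 ± 1.55 and 18.1 ± 2.24 CPM, against 35.3 ± 2.10 CPM in leaders, with no overlap (log2 -0.83 ± 0.12, adjusted p = 0.00022, short of the fold for a call). The JAG1 KO clones had 29.8 ± 1.98 CPM (clone 35) and 31.5 ± 1.18 CPM (clone 72), above all wild-type cultures. Their log2 difference from the wild-type clones was 0.63 ± 0.10 (adjusted p = 0.060), the 5 members gave 0 calls in either direction, and 0.31% of all genes rose and 1.75% fell there. The 0 calls hold for DESeq2 as well, and GAS6 had an unadjusted p of 0.0039.

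The MYO10 KO clones differed from each other in GAS6. Clone 98 had 26.9, 16.3, 14.8 and 20.3 CPM and clone 99 had 9.61, 6.19, 8.11 and 9.89 CPM, which is the lowest level of any line. GAS6 rose in clone 98 over clone 99 by 1.21 ± 0.16 (adjusted p = 7.6e-08), the sole call among the 5 members (1 rose, 0 fell), where 4.27% of all genes rose and 5.28% fell. Clone 98 overlapped the wild-type clones and clone 99 did not, so the MYO10 KO clones against the wild-type clones gave an adjusted p of 1 (log2 from -1.36 to 0.11 over pairs).

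PROS1 (ENSG00000184500.15, minus strand of chr3:93873033-93980003) was lowest in leaders and highest in followers. It averaged 10.7 ± 1.39 CPM in leaders, against 22.8 ± 0.794 CPM in parentals, and fell by 1.09 ± 0.12 (edgeR adjusted p = 2.5e-09). Without leader culture 3, the lowest at 8.66 CPM, the log2 was -0.99 and no longer met the fold for a call. Followers, at 35.9 ± 6.90 CPM, were above parentals in all cultures (log2 0.65 ± 0.12, adjusted p = 8.2e-06, not called). Only 4 tested genes lie within 1 Mb of PROS1, with a median log2 of -1.07 in leaders against followers and -0.25 in leaders against parentals.

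PROS1 also set the wild-type clones apart from leaders. Clone 75 had 29.5, 27.3, 21.9 and 27.0 CPM and clone 38 had 19.3, 21.0, 15.6 and 15.5 CPM, all above the 8.66 to 11.7 CPM of leaders. It rose in the wild-type clones by 1.02 ± 0.11 (adjusted p = 6.1e-06), from 0.74 to 1.3 over the clones, and 1 of 5 members rose and 0 fell, where 5.13% of all genes rose and 4.85% fell. The call was lost without culture 1 or 2 of clone 38, culture 1 of clone 75 or leader culture 3, where the log2 ran from 0.92 to 0.998. The JAG1 KO clones had less than clone 75, and clone 72 overlapped clone 38, at 12.4 ± 1.83 CPM (clone 35) and 15.8 ± 1.20 CPM (clone 72; log2 -0.63 ± 0.09 from the wild-type clones, adjusted p = 1). MYO10 KO clone 98 had 26.4 ± 1.17 CPM and clone 99 had 14.8 ± 2.54 CPM (log2 0.84 ± 0.12, adjusted p = 2.9e-07, not called).

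Together the ligands were led by GAS6 in leaders and by PROS1 in parentals. Per kb, GAS6 made up 75.0 ± 2.23% of the ligand sum in leaders, 44.3 ± 8.14% in followers and 37.5 ± 3.23% in parentals. With the length of the principal transcript in place of the exon union, these shares were 82.6%, 55.5% and 48.7%, so which ligand led in followers turned on the length used. The ligand sum was highest in followers (11.8 ± 1.37 CPM per kb) and lowest in MYO10 KO clone 99 (4.12 ± 0.312 CPM per kb). The sum of the receptors was 434 ± 21.0 CPM per kb in followers and between 41.0 and 82.7 CPM per kb in the other lines.

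In KD clone 84 against the wild-type clones 0 of 5 members were called, where 5.31% of all genes rose and 1.87% fell. TYRO3, at an unadjusted p of 0.0054, was the one member under 0.05 in that comparison, and DESeq2 called none. Between wild-type clones 38 and 75 again 0 of 5 were called by edgeR or DESeq2, where 1.63% of all genes rose and 2.74% fell. An unadjusted p under 0.05, a looser threshold, was reached by 4 members. No share of all genes at that threshold is given for either comparison. MERTK had a log2 of 0.76 ± 0.10 and PROS1 of -0.57 ± 0.12 (edgeR adjusted p = 0.00033). Between JAG1 KO clones 35 and 72 there were 0 of 5 called by either tool (12.2% of all genes rose, 8.78% fell). AXL, MERTK, TYRO3 and PROS1 had an edgeR adjusted p under 0.05 there, as did 55.3% of gene tests over all 45 pairs of lines.

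Other ligands have been described for the TAM receptors, namely tubby (TUB) and galectin-3 (LGALS3), while TULP1 was filtered out for low counts. LGALS3 fell in leaders against followers by 1.54 ± 0.12 (adjusted p = 1.6e-15), at 4.82 ± 0.494 CPM in leaders and 14 ± 2.21 CPM in followers, and it rose in KD clone 84 by 1.58 ± 0.09 (adjusted p = 7.2e-14). TUB rose in the MYO10 KO clones by 1.90 ± 0.09 (adjusted p = 2.4e-12), at 14.2 ± 1.85 CPM in clone 98 and 20.1 ± 3.50 CPM in clone 99, against 5.29 ± 0.459 CPM in wild-type clone 38 and 3.89 ± 0.157 CPM in wild-type clone 75. TUB was highest of all lines in JAG1 KO clone 35, at 23.5 ± 1.62 CPM, and had 2.7 ± 0.365 CPM in JAG1 KO clone 72. The wild-type clones were themselves above leaders (0.554 ± 0.195 CPM) in TUB, by log2 3.02 ± 0.17 (edgeR adjusted p = 1.3e-16). Of the 2 genes tested, 2 fell in leaders against followers, where 12.7% of all genes fell, and 1 rose in the MYO10 KO clones, where 4.91% of all genes rose. In KD clone 84 against the wild-type clones 1 rose, where 5.31% of all genes rose. LGALS3 was lower in JAG1 KO than wild-type clones (log2 -1.02 ± 0.09, edgeR adjusted p = 0.030), where 1.75% of all genes fell. It was also lower in MYO10 KO clone 98 than in clone 99 (log2 -1.68 ± 0.13, adjusted p = 5.8e-15), where 5.28% of all genes fell.

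The list for shedding of receptor ectodomains held the proteases ADAM10 and ADAM17, the inhibitors TIMP1 and TIMP3, and the iRhom genes RHBDF1 and RHBDF2. Of these 6 genes, 1 rose and 1 fell in leaders against followers, with a median log2 of 0.42, where 12.7% of all genes rose and 12.7% fell. In the MYO10 KO clones 0 were called, where 4.91% of all genes rose and 3.15% fell by the same call. An adjusted p under 0.05 alone was reached by 4 of the 6, and the share of all genes at that threshold is not given here. TIMP1, a secreted metalloproteinase inhibitor, fell in leaders by 1.14 ± 0.07 (adjusted p = 7.7e-18), at 79.7 ± 7.81 CPM in leaders and 175 ± 15.3 CPM in followers. TIMP3, which inhibits ADAM17, had 5.10 ± 1.08 CPM in leaders and no count in any follower library. ADAM17 had 94.7 ± 2.39 CPM in leaders and 49.4 ± 2.28 CPM in followers (log2 0.94 ± 0.05, adjusted p = 2.0e-19), short of a call. Of 7 genes of vitamin K dependent carboxylation, which the ligands need to bind phosphatidylserine, 0 were called in leaders against followers (median 0.48). There 12.7% of all genes rose and 12.7% fell by the same call. By an adjusted p under 0.05 alone 6 of the 7 passed, and over all 45 pairs of lines 55.3% of gene tests did so. GGCX, the carboxylase itself, had a log2 of 0.48 ± 0.06 (adjusted p = 5.2e-10).

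Adaptors and effectors of the receptors were called in 5 of 18 cases between leaders and followers, 3 rising and 2 falling, with a median log2 of -0.18, where 12.7% of all genes rose and 12.7% fell. SOCS1, an inhibitor of cytokine signalling, rose by 2.92 ± 0.35 (adjusted p = 9.1e-10), at 1.92 ± 0.471 CPM in leaders and 0.251 ± 0.0816 CPM in followers. VAV3 (log2 1.77 ± 0.39, adjusted p = 0.000114) and VAV1 (log2 2.06 ± 0.76, adjusted p = 0.017) also rose but averaged at most 0.531 and 0.0865 CPM in leaders or followers. SHC1, an adaptor of receptor tyrosine kinases, fell by 1.53 ± 0.05 (adjusted p = 9.5e-29), at 126 ± 0.868 CPM in leaders and 363 ± 6.56 CPM in followers. TNS2, a focal adhesion protein that binds AXL, fell by 2.68 ± 0.13 (adjusted p = 4.2e-21), at 6.73 ± 0.968 CPM in leaders and 43.1 ± 3.53 CPM in followers. In the MYO10 KO clones 2 of 18 rose and 0 fell (median 0.32), where 4.91% of all genes rose and 3.15% fell. These were TNS2 (log2 1.08 ± 0.09, adjusted p = 2.0e-08) and VAV1 (log2 4.15 ± 0.25, adjusted p = 3.0e-08). VAV1 was scarce throughout, at 3.26 ± 0.665 CPM in clone 98 and 0.692 ± 0.180 CPM in clone 99, against means of 0.0914 CPM or less in the wild-type clones.

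Genes for the uptake of apoptotic cells, the process that MERTK serves in phagocytes, gave 3 rises and 0 falls among 14 tested in the MYO10 KO clones, with a median log2 of 0.04, where 4.91% of all genes rose and 3.15% fell. ADGRB1 (BAI1), a phosphatidylserine receptor, rose by 2.71 ± 0.09 (adjusted p = 7.4e-16), at 91.2 ± 3.99 CPM in clone 98 and 121 ± 3.96 CPM in clone 99, against 23.1 ± 3.50 CPM in wild-type clone 38 and 11.2 ± 2.42 CPM in wild-type clone 75. LRP1, an endocytic receptor, rose by 1.83 ± 0.08 (adjusted p = 1.5e-12), at 51.3 ± 7.61 CPM in clone 98 and 61.8 ± 7.22 CPM in clone 99, against 18.9 ± 2.42 CPM in wild-type clone 38 and 13.1 ± 3.09 CPM in wild-type clone 75. The scavenger receptor STAB1 also passed (log2 3.12 ± 0.48, adjusted p = 0.0019) but averaged at most 0.252 CPM in any line. ADGRB1 and LRP1 also rose in JAG1 KO clone 35 over JAG1 KO clone 72, by log2 4.35 ± 0.15 (adjusted p = 1.3e-23) and 2.29 ± 0.13 (adjusted p = 1.8e-17). Of 4 receptor kinases that partner with AXL, 1 rose in the MYO10 KO clones, ERBB3 (log2 1.05 ± 0.16, adjusted p = 0.014), against that same share of all genes. In leaders against followers 0 of the 4 were called, where 12.7% of all genes rose and 12.7% fell. There EGFR had a log2 of 0.46 ± 0.08 (adjusted p = 8.4e-06) and MET, ERBB2 and ERBB3 had adjusted p values of 0.12 to 0.76.

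Outside the lists, the genes most like each member over the 10 line means of log2 CPM were taken from 10739 genes with at least 5 CPM in 1 line. They were DGCR8 (r = 0.98), EMD, FAM3A, GDI2 and EIF2S1 for AXL. For MERTK they were PRPF40B (r = 0.97), ITGA6, LRP12, PIK3R2 and NOMO2, and for TYRO3 they were SLCO4C1 (r = 0.97), MELK, TRDMT1, CASTOR2 and HPS4. For GAS6 they were UBAP2 (r = 0.88), POLE, RPLP0, NUDT1 and C15orf48, and for PROS1 they were TTPA (r = 0.93), GPR160, HPF1, SLC27A2 and PRDX6. All points share the 40 libraries and the descent of the lines, and the r of DGCR8 with AXL was 0.91 without followers.

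Copies of the members and the transcripts beside GAS6 were scarce. The pseudogenes TYRO3P and PROS2P averaged at most 0.061 and 0.234 CPM in any line, GAS6-AS1 at most 0.348 CPM and GAS6-DT 0.398 to 2.94 CPM. Values for GAS6-AS2 were not analysed here. A transfer RNA gene, TRK-TTT10-1, lies within AXL, and its reads (0.185 CPM in leaders and 1.33 CPM in followers) cannot be told apart from those of AXL.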

How the data were processed

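Total RNA of 10 H1299 lines, 4 cultures each, was sequenced. The deposited table holds raw counts per gene symbol, which the authors made with fastp 0.23.4, STAR 2.7.11b and HTSeq 2.0.5 on hg38, per the submitters' processing notes. The annotation release and the strand setting are not given in the sources used here, so reads of overlapping genes may be shared. The labels name biological replicates but no shared origin, so p-values measure the spread between cultures.

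Genes passed filterByExpr (minimum count 10, by line), which left 19703 genes. All 40 libraries entered 1 robust quasi-likelihood fit in edgeR 4.0.16 (R 4.3.3, limma 3.58.1) with TMM scaling and 30 residual degrees of freedom, checked on simulated data. CPM are TMM-scaled, with a prior count of 2 on the log2 scale. Where a side held several lines, the log2 fold change was averaged over the pairs of lines, the p was the largest over those pairs (1 where directions differed), and all p-values were Benjamini-Hochberg adjusted. Alternatives included DESeq2 1.42.0, a replicate block, the clone as the unit and leaving out each culture. Positions and lengths came from GENCODE 29, matched by symbol (36244 of 59251), and promoter sequences from RefSeq.

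Of 45 pairs of lines, 5 had a correlation over 0.1 for every shared replicate number, among them wild-type clones 38 and 75, and the mean was 0.058. The members and lists were chosen with earlier results of these data known. Genes named were the members, up to 4 called genes of each list with the largest changes, the YAP, TAZ and TEAD genes, FOSL1, overlapping genes, genes beside a member and the 5 most alike per member. LTBP4, SPTBN4, TIMP1, ADAM17, GGCX, EGFR, MET, ERBB2, EPCAM, PTPRC and CD68 were singled out with their values known or as markers.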

Additional observations from a re-analysis of the deposited data

Results flagged for a closer look

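In wild-type clone 75, the lowest of the 4 cultures in MERTK had 13.2 CPM, and the others had 17.7 to 18.4 CPM. In MYO10 KO clone 99, the highest culture in TYRO3 had 15.6 CPM, and the next had 14.7 CPM. A single culture stood apart in these 2 of 50 groups of 4 cultures by Dixon's criterion, and chance gives about 1 in 20 groups. MYO10 KO clones 98 and 99, set against the same wild-type clones, differed from each other in GAS6 by log2 1.21 (edgeR adjusted p = 7.6e-08).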

How the results depend on the processing

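Of 930 alternatives for the members, 910 kept their direction and their side of the threshold. The cause of the others was not tested. GAS6 in followers against parentals (1.05) was 0.97 on library totals alone and 0.99 in a fit of the compared lines alone, and 0.92 to 1.15 with a culture left out. PROS1 was 0.92 to 1.06 in wild-type clones against leaders and -1.13 to -0.99 in leaders against parentals with a culture left out. TYRO3 in MYO10 KO clones was -1.01 with no low-count filter, -1.003 with a minimum count of 50 and -1.02 to -0.97 with a culture left out. With the clone as the unit MERTK was 1.46 there, and 0 genes were called in the MYO10 KO or JAG1 KO clones (2376 and 1135 at an unadjusted p under 0.05). TYRO3 in wild-type clones against leaders turned to 0.0015 on library totals alone, and MERTK in the KD clone to 0.0057 without culture 4 of clone 84 (-0.15 to 0.0057 over cultures left out), neither being called. With a minimum count of 50, which tests fewer genes, the genes called numbered 3122 for leaders against followers (5013 in the results above), 1219 for leaders against parentals (1923), 2406 for followers against parentals (3992), 528 for wild-type clone 38 against 75 (861), 2603 for JAG1 KO clone 35 against 72 (4138) and 1147 for MYO10 KO clone 98 against 99 (1882). A replicate block changed no call of a member, and it gave 5011 genes for leaders against followers and 870 for wild-type clone 38 against 75. Genes with a few counts, such as STAB1 and VAV1, are limited by depth.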

Other observations

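Phosphatidylserine, the lipid that the ligands of the TAM receptors recognise, is kept inside the cell by flippases and exposed by scramblases. Of 9 tested genes for these proteins, 1 rose and 1 fell in MYO10 KO against wild-type clones (median log2 -0.07), where 4.91% of all genes rose and 3.15% fell. XKR9, a scramblase, fell in leaders by 1.69 ± 0.08 (edgeR adjusted p = 1.2e-21), at 7.19 ± 0.0628 CPM in leaders and 23.1 ± 1.08 CPM in followers.

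In the MYO10 KO clones the flippase gene ATP8A1 fell by 2.53 ± 0.11 (edgeR adjusted p = 7.5e-15), at 1.82 ± 0.271 CPM in clone 98 and 1.42 ± 0.454 CPM in clone 99, against 11.4 ± 0.944 CPM in wild-type clone 38 and 7.59 ± 1.10 CPM in wild-type clone 75. JAG1 KO clone 35 was also low in ATP8A1, at 2.78 ± 0.182 CPM, whereas JAG1 KO clone 72 was highest of all lines at 19.8 ± 0.680 CPM. XKR4, another scramblase, had 2.00 ± 0.851 CPM in clone 98 and 4.66 ± 1.60 CPM in clone 99, against at most 2 counts per library in the wild-type clones.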
